A study of Homo sapiens with 28 samples.

Results

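Glycolysis and hypoxia response genes were followed in 4 human multiple myeloma cell lines exposed to arsenic. The list held 36 genes: sugar and lactate carriers, the enzymes of glycolysis, the enzymes that decide the fate of pyruvate, the oxygen sensing factor HIF1A with its hydroxylases, and well known targets of that factor. A gene was measured through probe sets whose only gene symbol in the platform annotation was that gene. This found 33 of the 36 genes, on 75 of the 54675 probe sets of the array, out of 19775 genes with such a probe set. CA9 and SLC16A3 were not analysed here, and MXD4 was named only together with another symbol. All 33 genes passed the filter for low signal (a signal above the 50th percentile of the array on at least 4 of 28 arrays), as did 15448 genes in all.

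U266, MM.1s, KMS11 and the fourth line, whose name stands in the keys of the plots, are established lines of malignant plasma cells, and RNA of each was measured on 7 Affymetrix arrays. Each line had 2 untreated arrays at 0 h, numbered control 1 and control 2. Arsenic trioxide (ATO), an inorganic arsenical used against acute promyelocytic leukaemia, was given to every line at 2 µM for 6, 24 or 48 h. Darinaparsin (DAR), an organic arsenical in which dimethylarsenic is joined to glutathione, was given for 6 or 24 h at a dose that differed by line: U266 got 4 µM, KMS11 and MM.1s got 3 µM, and the fourth line got 2 µM. ATO arrays were compared with control 2 and DAR arrays with control 1 of the same line. The 4 lines were the replicates, with 1 array for each line and treatment, and the labels do not say whether arrays came from separate cultures, so p-values measure the spread among these arrays only. The untreated cells were taken at 0 h, so hours in culture and compound cannot be told apart. Fewer cells of a kind and less RNA per cell also cannot be told apart in RNA of whole cultures. Changes are mean differences of log2(signal + 29) over the 4 lines, which understate the change of dim genes. Their standard error (SE) is that of the limma fit. For the treatments it shares 1 residual spread of a gene over all times and both compounds, so it does not give the spread of the 4 lines in 1 comparison. The times of a compound also share 1 control array in each line. A gene is called where the Benjamini-Hochberg adjusted p of limma over the 15448 genes was under 0.05.

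The arrays formed separate sets. Median signal was 65.5 to 109 on the 12 control 1 and DAR arrays and 111 to 147 on the 16 control 2 and ATO arrays. The ratio of the 3′ to the 5′ array control probe sets of ACTB, a measure of RNA or labelling quality, was 1.28 to 2.19 in the former and 1.03 to 1.27 in the latter. The 9 plasma cell markers (SDC1, TNFRSF17, MZB1, XBP1, IRF4, PRDM1, CD38, POU2AF1 and SLAMF7) were each above the array median on at least 4 arrays in all. However, CD38 stayed at 9.3 to 15.7 in KMS11 and at 11.7 to 366 in U266. MZB1 was at 13.7 to 536 in U266, and SLAMF7 at 26.2 to 281 in the fourth line. The summed signal of the 9 markers was 44598 to 110754 in control 2 and 29444 to 52364 after 24 h of ATO. Of 14 markers of other cells, 11 were above the array median on at least 4 arrays, and their summed signal was 2629 to 15136 in control 2 and 3170 to 15105 after 24 h of ATO. Some of these markers differed by line. EPCAM (6540 to 11500) and KRT18 (4870 to 19000), both epithelial, and MS4A1 (691 to 2060), of B cells, were high in the fourth line, and EPCAM was at 1920 to 3450 in KMS11. KRT8, also epithelial, was not set apart there (220 to 372, against 191 to 473 in U266), and PAX5, also of B cells, was at 70.8 to 588. KRT8 was above the array median on 28 arrays, HBB on 26, COL1A1 on 22, DCN on 21 and COL1A2 on 20. Of the 14, CD14, a defining monocyte marker, was the 1 above the array median on 0 arrays, while CSF1R, also of monocytes, was above it on 11. The part of these differences in the results was not tested. The deposited scaling also bears on counts over all genes. With each array centred on its median limma called 492 genes higher and 925 lower at 48 h of ATO (989 and 848 as deposited), 225 and 276 at 24 h of ATO (423 and 354), 692 and 1161 at 6 h of DAR (1059 and 984), 41 and 33 at 24 h of DAR (76 and 20), and 395 and 427 from 6 to 24 h of DAR (631 and 565).

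Glycolysis splits glucose into pyruvate and yields ATP without oxygen. Carriers bring glucose in, a hexokinase traps it, phosphofructokinase commits it, and lactate dehydrogenase turns the pyruvate into lactate. When oxygen is short, prolyl hydroxylases (EGLN1, EGLN3) stop marking HIF1A for destruction, and the stabilised factor raises the transcription of most of these enzymes and of genes such as VEGFA. HIF1A is governed mainly at the protein level, so its RNA is a poor measure of its activity. Many cancer cells keep glycolysis high even with oxygen present.

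After ATO, 6 of the 33 genes fell at 6 h, 7 at 24 h and 7 at 48 h, and none rose. In these comparisons limma called 2.67%, 2.29% and 5.49% of all tested genes lower and 3.75%, 2.74% and 6.4% higher. For the rising direction, 0 members passed even an unadjusted p of 0.05 at each time. The median change of the 33 genes was -0.26 at 6 h, -0.33 at 24 h and -0.18 at 48 h, beside -0.00, 0.02 and 0.06 over all genes tested. HK2 and PFKFB4 were called at all 3 times, PDK1, ALDOC and TPI1 at 24 and 48 h, and PFKFB3 at 6 and 24 h. PFKP, KDM3A and BNIP3L were called at 6 h alone of the 3 times, PDK3 at 24 h alone, and LDHA and ANKRD37 at 48 h alone.

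**Figure D1:**
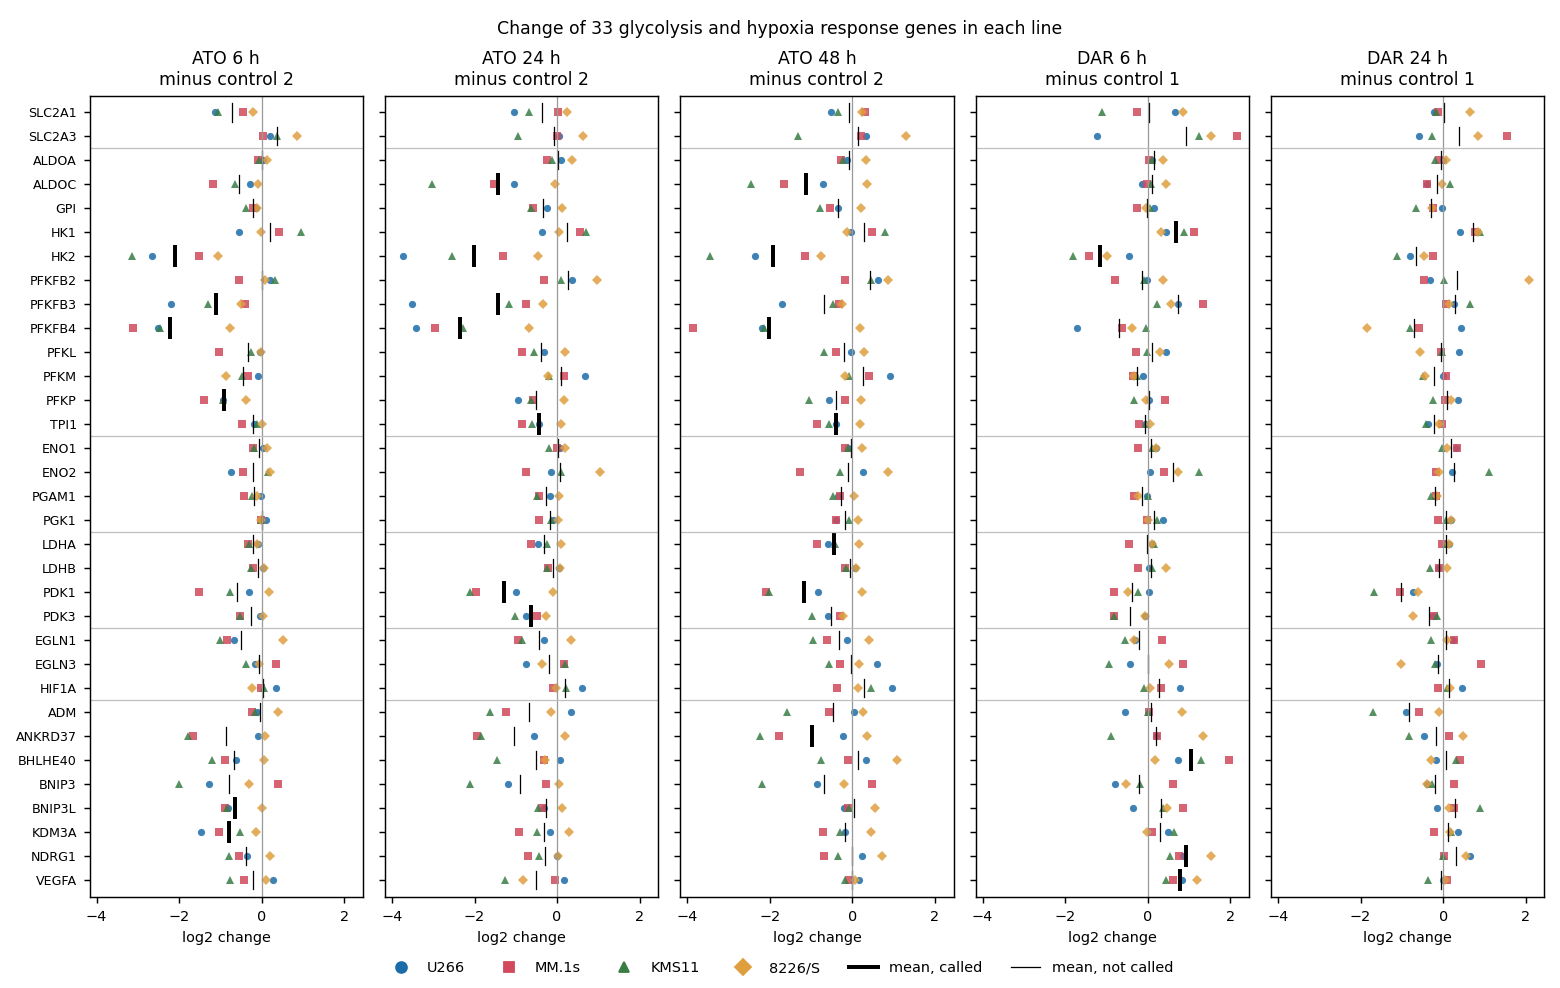
Change of each of the 33 genes (rows, ordered by role from carriers at the top to other hypoxia targets) on the log2(signal + 29) scale, in 5 panels for the 5 treatments against their control. Points are the 4 lines, vertical bars their mean, thick where limma called it; after ATO every thick bar lies below 0, and the fourth line's diamonds lie nearest to or above 0 for most genes.

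Of the glucose carriers, which let glucose into the cell, neither was called after ATO. SLC2A1 was at -0.71 ± 0.24 at 6 h, lower in all 4 lines (adjusted p = 0.084), and at -0.37 and -0.08 later, and SLC2A3 ranged from -0.07 to 0.37.

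HK2, the inducible hexokinase that takes the first step of glycolysis, fell most steadily. Its signal in control 2 was 1560 in U266, 2436 in MM.1s, 3153 in KMS11 and 2347 in the fourth line. After 6 h of ATO it was 224, 837, 330 and 1102, in the same order of lines. All 4 treated arrays lay below all 4 control 2 arrays. The change was -2.09 ± 0.36 (SE of the limma fit, adjusted p = 0.000765) at 6 h, -2.02 ± 0.36 (adjusted p = 0.00162) at 24 h and -1.93 ± 0.36 (adjusted p = 0.00108) at 48 h. The standard deviation of the change over the 4 lines was 0.97, 1.43 and 1.23. The fall was deepest in KMS11 at 6 and 48 h (-3.15 and -3.46) and in U266 at 24 h (-3.74, to a signal of 89.7), and the fourth line moved least each time. A pair of dimmer HK2 probe sets was also lower at 6 h, by less (-0.22 and -0.82). HK1, the housekeeping hexokinase, was not called after ATO (0.20, 0.23 and 0.28).

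PFKFB4 and PFKFB3 make and break fructose 2,6-bisphosphate, the strongest activator of phosphofructokinase, and both are classical hypoxia targets. PFKFB4 signal was 1386 in U266, 1230 in MM.1s, 1052 in KMS11 and 256 in the fourth line in control 2. After 6 h of ATO it was 219, 117, 167 and 140. These groups did not overlap, although the fourth line's control was already low. The PFKFB4 change was -2.21 ± 0.47 at 6 h (adjusted p = 0.00555), -2.34 ± 0.47 at 24 h (adjusted p = 0.00485) and -2.01 ± 0.47 at 48 h (adjusted p = 0.00714), the largest mean changes of the set at each ATO time. At 48 h it was 0.19 higher in the fourth line, the 1 line that did not go down. Its second, dimmer probe set changed by -1.69, -1.76 and -1.25. PFKFB3 went from 744, 581, 972 and 726 in control 2 to 140, 431, 378 and 505 at 6 h. Every treated array lay below every control 2 array. The PFKFB3 change was -1.10 ± 0.32 at 6 h (adjusted p = 0.0391) and -1.44 ± 0.32 at 24 h (adjusted p = 0.00906), and at 48 h it was -0.69 ± 0.32 (adjusted p = 0.179). U266 carried the deepest fall, to a signal of 38.3 at 24 h. Without U266 PFKFB3 was at -0.73 at 6 h (adjusted p = 0.106) and -0.75 at 24 h (adjusted p = 0.138). The 6 h call was lost with any 1 of the lines left out, with an offset of 1 (adjusted p = 0.0763), with no filter (adjusted p = 0.0525) and with the mean of probe sets (adjusted p = 0.0566), and the 24 h call also without KMS11 (adjusted p = 0.0583). PFKFB2, the third enzyme of this family on the list, stayed between 0.01 and 0.43 and was not called.

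ALDOC, an aldolase isoform that splits fructose 1,6-bisphosphate, was at 3456 in U266, 2438 in MM.1s, 3679 in KMS11 and 1089 in the fourth line in control 2. At 24 h of ATO it was at 1664, 826, 423 and 1045. It was far lower in 3 lines and hardly lower in the fourth line (-0.06), whose control was the lowest, so that the groups overlapped. The ALDOC change was -0.55 ± 0.31 at 6 h (adjusted p = 0.378), -1.42 ± 0.31 at 24 h (adjusted p = 0.00943) and -1.12 ± 0.31 at 48 h (adjusted p = 0.0216). At 48 h ALDOC was 0.35 higher in the fourth line. ALDOA, the main aldolase of most tissues, lay within 0.08 of no change at each time.

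HK2, PFKFB4 and ALDOC were the 3 members that met 2 rules. They were over 1 log2 unit higher in control 2 than in control 1. They were also over 1 log2 unit lower than control 2 at 24 and 48 h of ATO. Both rules use the same control 2 arrays, with opposite sign. A gene that happened to be high on those arrays would tend to meet both, so the rules are not separate observations. For these 3 genes the 250 bases before the most upstream transcript start are shown. The sequences are RefSeq's on GRCh38.p14, read 5′ to 3′ on the gene's strand, and capitals mark the core letters of the HIF binding element, ACGTG or GCGTG, on either strand. The windows are chr2:74833877-74834126 on the plus strand for HK2, chr3:48556804-48557053 on the minus strand for PFKFB4 and chr17:28576896-28577145 on the minus strand for ALDOC.
HK2: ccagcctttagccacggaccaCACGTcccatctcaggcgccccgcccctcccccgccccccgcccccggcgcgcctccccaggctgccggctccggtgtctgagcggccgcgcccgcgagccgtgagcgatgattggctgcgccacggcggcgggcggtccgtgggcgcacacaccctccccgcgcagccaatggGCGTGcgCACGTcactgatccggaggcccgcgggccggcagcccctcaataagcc
PFKFB4: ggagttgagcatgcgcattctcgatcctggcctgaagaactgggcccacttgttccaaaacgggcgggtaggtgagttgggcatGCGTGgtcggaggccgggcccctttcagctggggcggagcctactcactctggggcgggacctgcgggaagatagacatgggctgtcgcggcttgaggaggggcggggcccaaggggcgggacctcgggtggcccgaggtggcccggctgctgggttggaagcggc
ALDOC: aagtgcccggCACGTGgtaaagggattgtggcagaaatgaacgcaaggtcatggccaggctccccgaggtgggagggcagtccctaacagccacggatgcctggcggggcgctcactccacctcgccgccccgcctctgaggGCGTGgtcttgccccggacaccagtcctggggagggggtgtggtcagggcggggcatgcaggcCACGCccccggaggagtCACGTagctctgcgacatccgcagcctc
HK2 held 2 matches of ACGTG and 1 of GCGTG. PFKFB4 held 1 of GCGTG and 0 of ACGTG. ALDOC held 3 of ACGTG, of which a pair shared the palindrome CACGTG at the far end, and 2 of GCGTG. Among the 28 members with a window in the table, 12 (42.9%) held ACGTG, beside 22.2% of 12282 tested genes with a window. For GCGTG the shares were 42.9% and 42.3%, and for either string 67.9% and 54%. A match is a description of letters, not a bound site.

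The phosphofructokinase subunits, which make the committed step, went separate ways. PFKP was at 6851 in U266, 11986 in KMS11 and 6883 in the fourth line in control 2, and at 3535, 6237 and 5273 at 6 h of ATO. In MM.1s it was below the array median on all 7 arrays (8.64 to 91.7), so its change there (-1.41, against -0.38 to -0.95 in the others) comes from signals too low to measure a change. With MM.1s in the mean PFKP fell by 0.92 ± 0.18 at 6 h (adjusted p = 0.00291), and at 24 and 48 h it was at -0.50 and -0.39 (adjusted p = 0.124 and 0.178). Without MM.1s the 6 h change was -0.76 (adjusted p = 0.0334), and with the mean of its 2 probe sets, the other of which had a mean signal of 164, it was -0.37 (adjusted p = 0.39). PFKM, the muscle type subunit, was at -0.45 ± 0.14 at 6 h (adjusted p = 0.055), lower in all 4 lines, and at 0.26 at 48 h. Between 6 and 48 h of ATO, PFKM rose by 0.71 ± 0.14 (adjusted p = 0.00508), from 2966, 2387, 5005 and 3267 to 6039, 4012, 6562 and 5267. It was higher in all 4 lines, although the groups overlapped. PFKL, the liver type subunit, was not called (-0.33, -0.38 and -0.21). TPI1, which interconverts the triose phosphates, fell by 0.45 ± 0.12 at 24 h (adjusted p = 0.0348) and 0.41 ± 0.12 at 48 h (adjusted p = 0.0314), lower in the same 3 lines each time, and its second bright probe set gave -0.45 and -0.35. Neither TPI1 call held with the mean of probe sets (-0.38 and -0.43; adjusted p = 0.403 and 0.238) or without U266, MM.1s or KMS11, and without MM.1s the values were -0.31 and -0.26. GPI, which turns glucose 6-phosphate into fructose 6-phosphate, was at -0.21 to -0.36 and was not called.

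The 4 enzymes of lower glycolysis were not called on their brightest probe sets. PGK1, PGAM1, ENO1 and ENO2, which carry the triose phosphates on to phosphoenolpyruvate, ranged from -0.27 to 0.06 over the 3 times. PGK1 was read differently by its probe sets. The brightest changed by -0.17 at 24 h and -0.18 at 48 h, and the next 3 by -0.38 to -0.54 and by -0.45 to -0.68. With the mean of its probe sets limma called PGK1 lower at 24 h (-0.49 ± 0.13; adjusted p = 0.0353) and at 48 h (-0.56 ± 0.13; adjusted p = 0.00891).

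**Figure D2:**
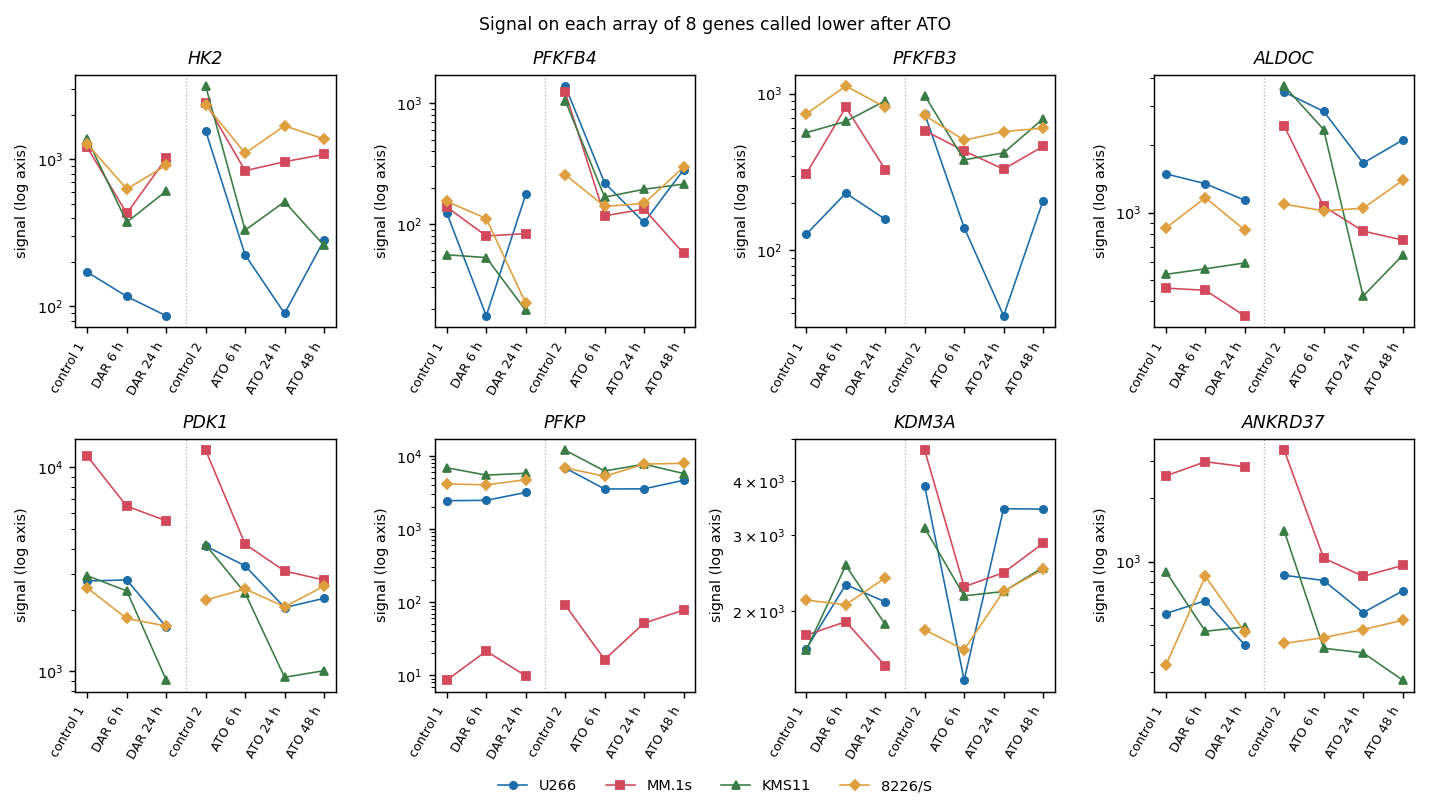
Signal (log axis) on each of the 28 arrays of 8 genes called lower at 1 ATO time or more; lines join arrays of 1 cell line within the control 1 and DAR set (left of the dotted line) and the control 2 and ATO set (right). PFKFB4 after ATO (57.3 to 296) lies below most control 2 arrays and overlaps the control 1 arrays (55.7 to 154). PDK1 starts at a like level in both controls and ends lower, except in the fourth line at 48 h of ATO (0.23 higher).

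Among the enzymes that set the fate of pyruvate, PDK1 moved most. It encodes a kinase that shuts the pyruvate dehydrogenase complex and so keeps pyruvate out of the citric acid cycle. PDK1 signal was 4114 in U266, 12126 in MM.1s, 4170 in KMS11 and 2236 in the fourth line in control 2. At 24 h of ATO it was 2057, 3104, 937 and 2073. It was lower in every line, by little in the fourth line, and the groups overlapped through that line's low control. The PDK1 change was -0.61 ± 0.27 at 6 h (adjusted p = 0.202), -1.29 ± 0.27 at 24 h (adjusted p = 0.00558) and -1.18 ± 0.27 at 48 h (adjusted p = 0.00527). At 48 h PDK1 was 0.23 higher in the fourth line. Its other probe sets were lower at each time as well, with -1.12 and -0.50 at 24 h. PDK3, a kinase of the same family, fell by 0.63 ± 0.19 at 24 h (adjusted p = 0.0499) on its brightest probe set, whereas its other 4 lay between -0.14 and 0.14, and with the mean of probe sets it was at -0.12 (adjusted p = 0.766). LDHA, which makes lactate, fell by 0.44 ± 0.12 at 48 h (adjusted p = 0.0218), from 19874 to 25786 in control 2 to 13184 to 24763. The LDHA ranges overlapped through the fourth line, which was 0.15 higher. Without MM.1s it was -0.29 (adjusted p = 0.203), and the call was also lost without U266 or KMS11. LDHB, the subunit that favours the reverse reaction, was at -0.05 to -0.10 and was not called.

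HIF1A RNA was not lowered. Its signal was 3425 in U266, 2663 in MM.1s, 3988 in KMS11 and 2988 in the fourth line in control 2, and 6659, 2055, 5406 and 3286 at 48 h of ATO. It was higher in 3 lines and lower in MM.1s, and the mean change of 0.29 ± 0.15 was not called (adjusted p = 0.255). The hydroxylases EGLN1 and EGLN3 ranged from -0.50 to -0.03 and were not called, and EGLN1 was lower at 6 h in U266, MM.1s and KMS11 (-0.66 to -1.02) and 0.52 higher in the fourth line.

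Of the 8 other hypoxia targets, KDM3A, BNIP3L and ANKRD37 were called lower after ATO at some time. KDM3A, a histone H3 lysine 9 demethylase, went from 3899, 4718, 3118 and 1812 in control 2 to 1388, 2282, 2173 and 1632 at 6 h. All 4 lines were lower, and the fourth line hardly so. The KDM3A change was -0.79 ± 0.19 at 6 h (adjusted p = 0.0104), and at 24 and 48 h it was -0.32 and -0.18 and not called. With the mean of its 2 probe sets, the other of which was above the array median on 0 arrays, the 6 h change was -0.36 (adjusted p = 0.389), and the call was also lost without U266 (-0.57), MM.1s (-0.71) or KMS11 (-0.89). BNIP3L, a mitophagy receptor, went from 4324, 3656, 3023 and 1683 in control 2 to 2429, 1957, 1665 and 1687 at 6 h. It fell by 0.64 ± 0.17 (adjusted p = 0.0226), in 3 lines and not in the fourth line, and rose by 0.68 ± 0.17 from 6 to 48 h of ATO (adjusted p = 0.023). With the mean of probe sets these values were -0.44 (adjusted p = 0.272) and 0.59 (adjusted p = 0.147), and both calls were lost without U266, MM.1s or KMS11. Its 48 h arrays (2472 to 3759) all lay above its 6 h arrays (1665 to 2429). BNIP3L and PFKM were the 2 members called between 6 and 48 h, both higher. Over all genes tested 1.75% were called higher and 2.06% lower in that comparison (115 genes higher and 285 lower with each array centred on its median, against 270 and 319), and 1 member passed an unadjusted p of 0.05 in the lower direction (PDK1, -0.57 ± 0.27).

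ANKRD37, a small ankyrin repeat protein induced by HIF1A, fell in some lines and not in others. Its signal in control 2 was 862 in U266, 3385 in MM.1s, 1400 in KMS11 and 409 in the fourth line. At 48 h of ATO it was 726, 960, 274 and 527. It was far lower in MM.1s and KMS11 at each time (-1.67 to -2.24), little lower in U266 (-0.08 to -0.57) and slightly higher in the fourth line (0.09 to 0.34). The mean change passed at 48 h (-0.98 ± 0.32; adjusted p = 0.0476). It was lost with an offset of 1 (adjusted p = 0.058), with no filter (adjusted p = 0.0617), with the mean of its 2 probe sets (-0.40, adjusted p = 0.511; the other was above the array median on 2 arrays), and without U266 (-1.23), MM.1s (-0.71) or KMS11 (-0.56). ANKRD37 was also the 1 member of 33 for which the lines differed in their ATO response, with the times standing in as replicates (limma F test; adjusted p = 0.045). Each line's response rests on 1 control array, and the call was lost with an offset of 1, with no filter, with the mean of probe sets and with any 1 of the lines left out. In that test 0.142% of all genes tested were called. BNIP3, a mitophagy receptor related to BNIP3L, came next (adjusted p = 0.0694), at -2.01 to -2.19 in KMS11 and -0.85 to -1.28 in U266. In MM.1s the BNIP3 probe set was below the array median on all 7 arrays (3.83 to 42.6). VEGFA, ADM, NDRG1 and BHLHE40, which encode a growth factor of blood vessels, a vasodilator peptide, a stress regulated protein and a transcriptional repressor, ranged from -0.67 to 0.13 after ATO and were not called.

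The fall of the set was uneven over the lines. In MM.1s the median change of the 33 genes was -0.45, -0.48 and -0.32 at 6, 24 and 48 h, in KMS11 -0.48, -0.61 and -0.48, and in U266 -0.17, -0.31 and -0.18. In the fourth line it was -0.01, 0.04 and 0.21, and 27 of the 33 genes were higher than control 2 at 48 h. With the fourth line left out, limma called 10, 11 and 11 members lower at 6, 24 and 48 h, EGLN1 (-0.84, -0.71 and -0.57) being called at each time, where 2.16%, 2.87% and 6.07% of all genes tested were lower. With KMS11 left out it called 2, 1 and 1 (0.511%, 0.634% and 2.4% of all genes), with MM.1s left out 3, 2 and 2 (0.835%, 0.608% and 2.48%), and with U266 left out 4, 3 and 3 (2.01%, 0.971% and 3.37%). Fewer genes of the whole array were thus called as well without any of these 3 lines. HK2 was called at all 3 times whichever line was left out. PFKFB4, PDK1 and ALDOC were called at no time without KMS11 or without MM.1s.

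The size of the ATO falls rests on which untreated array serves as the control. HK2 in control 1 was at 171 in U266, 1205 in MM.1s, 1373 in KMS11 and 1270 in the fourth line, and its 24 h ATO arrays were at 89.7, 964, 515 and 1692. PFKFB4 in control 1 was at 55.7 to 154, where its arrays after 24 h of ATO were at 103 to 194. ALDOC was at 459 to 1489 in control 1 and at 423 to 1664 at 24 h of ATO. For these 3 genes the treated levels overlapped those of control 1. With both controls of a line pooled, limma called 2, 3 and 4 members at 6, 24 and 48 h, all lower, where 4.07%, 3.38% and 7.39% of all genes tested were lower, and 1, 1 and 2 of the members were also called against control 2 alone. HK2 (-1.34) and PFKM (-0.53) were called at 6 h. PDK1 (-1.17 and -1.06), LDHA (-0.45 and -0.58) and ADM (-1.02 and -0.82) were called at 24 and 48 h, with PGAM1 (-0.34) at 48 h. In that fit PFKFB4 was at -0.90, -1.03 and -0.70 and ALDOC at 0.28, -0.59 and -0.29, none of them called.

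Control 2 exceeded control 1 for much of the set although both were untreated. The ACTB ratio was 1.37 to 1.9 on the control 1 arrays and 1.09 to 1.13 on the control 2 arrays, and its part in the difference was not tested. Of the 33 genes, 16 were higher and 4 lower in control 2 by limma, where 28.1% of all genes tested were higher and 16.9% lower. The median difference was 0.49 for the members and 0.21 for all genes. The difference depended on brightness over all genes: the median was 0.66 for the 6261 genes with a mean signal under 300 and -0.40 for the 384 genes at 10000 or more. Between 1000 and 3000 it was -0.10 over 3352 genes and 1.12 over the 9 members there, the widest gap. Members had medians of 1.01 under 300, 0.87 from 300 to 1000, 0.24 from 3000 to 10000 and -0.09 above. The medians of all genes in those ranges were 0.66, 0.19, -0.31 and -0.40. With each array centred on its median, which moved the median of all genes to -0.32, 10 members were higher and 10 lower. Of all genes tested 10.1% were then higher and 36.6% lower. With quantile normalization, which moved the median of all genes to 0.02, 17 members were higher and 0 lower, beside 16.3% and 15.9% of all genes. LDHB, HIF1A and ADM were then no longer called, and LDHA was 0.09 higher.

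PFKFB4 differed most, by 2.61 ± 0.41 (SE; adjusted p = 0.000866), with all 4 control 2 arrays above all 4 control 1 arrays. BHLHE40 followed at 1.87 ± 0.25 (adjusted p = 0.000365), ENO2 at 1.68 ± 0.30, ALDOC at 1.65 ± 0.32 and HK2 at 1.51 ± 0.29. PFKL (1.41), SLC2A1 (1.32), NDRG1 (1.26), PFKP (1.17), BNIP3L (1.12), EGLN3 (1.01), PFKFB3 (0.97) and KDM3A (0.83) were also called higher. EGLN3 was dim, above the array median on 1 of 7 arrays in U266 and in MM.1s and on 3 in KMS11. In the fourth line, where it was brighter (332 and 399), it differed by 0.25. EGLN3 and PFKFB3 were called neither with median centring nor with quantile normalization, and KDM3A was not called with median centring. SLC2A1 encodes the basal glucose carrier and went from 197, 513, 384 and 1018 in control 1 to 1090, 1182, 1097 and 1332 in control 2, with no overlap. ADM (-0.69), LDHB (-0.42), HIF1A (-0.38) and LDHA (-0.28) were the 4 called lower. The median over members was 0.62 in U266, 0.55 in MM.1s and 0.62 in KMS11, and -0.03 in the fourth line. VEGFA was not called at 0.17 on its brightest probe set, but its other 3 probe sets gave 1.12, 1.53 and 2.53.

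**Figure D3:**
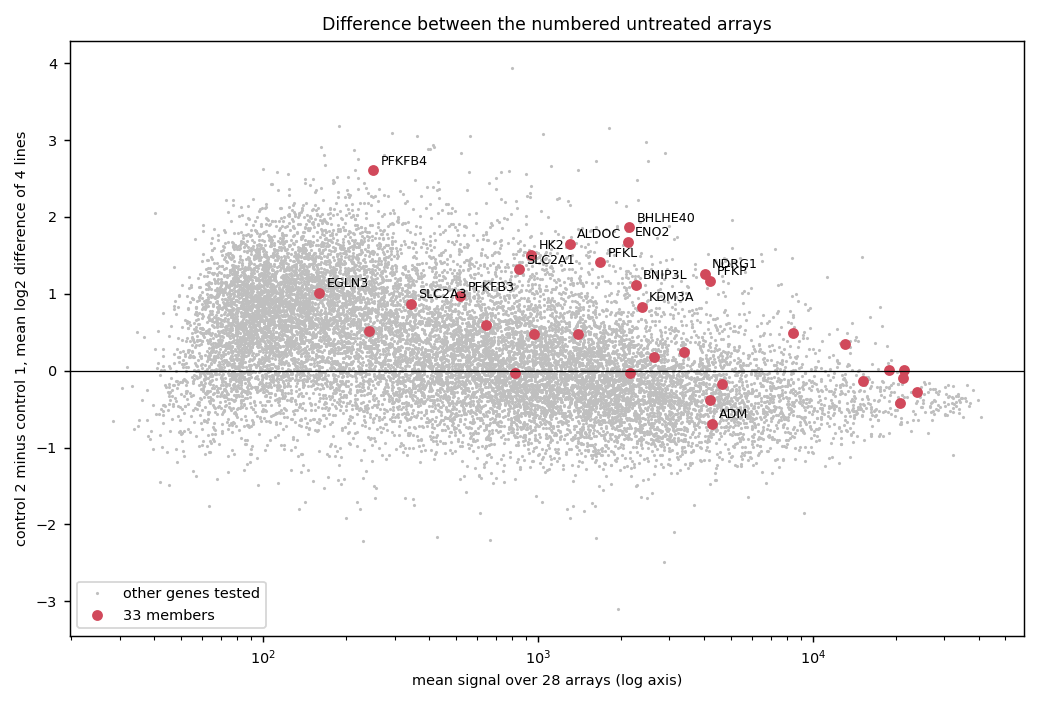
Control 2 minus control 1 (mean log2 difference of the 4 lines) against mean signal over the 28 arrays (log axis) for the genes tested (grey) and the 33 members (red). The grey cloud slopes from a median of 0.66 below a signal of 300 to -0.40 at 10000 or more, and PFKFB4, BHLHE40, ENO2, ALDOC and HK2 lie above it.

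DAR gave another picture at 6 h. Against control 1, limma called 4 members higher (NDRG1, BHLHE40, VEGFA and HK1) and 1 lower (HK2), where 6.86% of all genes tested were higher and 6.37% lower. The median change of the members was 0.07, beside 0.02 over all genes. With quantile normalization 3 were higher and 0 lower (5.48% and 5.41% of all genes tested), HK1 and HK2 no longer being called. NDRG1 was called whichever line was left out. VEGFA was not called without the fourth line nor BHLHE40 without MM.1s, HK1 was called only with the fourth line left out and HK2 only with U266 left out. The calls also rest on which untreated array serves as the control. With both controls of a line pooled 1 member was higher, VEGFA (0.69; adjusted p = 0.0468), and 2 were lower, HK2 (-1.92; adjusted p = 0.00344) and PFKFB4 (adjusted p = 0.0304), where 7.3% of all genes tested were higher and 7.13% lower. NDRG1 was then at 0.29 (adjusted p = 0.5), BHLHE40 at 0.10 (adjusted p = 0.883) and HK1 at 0.38 (adjusted p = 0.255).

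NDRG1, a protein long used as a hypoxia marker, was at 4060 in U266, 2254 in MM.1s, 1498 in KMS11 and 1096 in the fourth line in control 1, and at 7269, 3846, 2169 and 3240 at 6 h of DAR. Every line was higher, by 0.53 to 1.54, though the lines differ so much that the groups overlapped. The NDRG1 change was 0.92 ± 0.17 (adjusted p = 0.000948). VEGFA, the angiogenic growth factor, went from 3239, 2056, 1782 and 2400 to 5794, 3185, 2448 and 5511. It was higher in all 4 lines, by 0.77 ± 0.18 (adjusted p = 0.00592), and its other 3 probe sets gave 0.40 to 1.23. BHLHE40, a repressor that takes part in the circadian clock, went from 2865, 162, 515 and 359 to 4762, 720, 1294 and 409. It rose by 1.04 ± 0.25 (adjusted p = 0.00591), most in MM.1s (1.97) and least in the fourth line (0.18). HK1 went from 1172, 137, 268 and 22.1 to 1595, 332, 513 and 34.2. It rose by 0.68 ± 0.20 (adjusted p = 0.027), but its level in the fourth line was below the array median on all 7 arrays.

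HK2 was the 1 member called lower after DAR. It went from 171, 1205, 1373 and 1270 in control 1 to 117, 429, 374 and 629 at 6 h. All 4 lines were lower (-0.45 to -1.80), and the groups overlapped through U266, whose control was already low. HK2 fell by 1.16 ± 0.36 (adjusted p = 0.0328). SLC2A3, a high affinity glucose carrier, was at 0.93 ± 0.41 (adjusted p = 0.143), higher in 3 lines and at -1.22 in U266, where it was below the array median on all 7 arrays. Without U266 limma called SLC2A3 higher (1.65 ± 0.39; adjusted p = 0.0106). The largest SLC2A3 rise was in MM.1s (2.15), from a control 1 signal of 11.8, below that array's median of 79.4. A change from so low a signal is poorly measured. HIF1A was at 0.27 ± 0.15 (adjusted p = 0.289), with signals of 5454, 3618, 4732 and 3359 in control 1 and 9376, 4541, 4438 and 3492 at 6 h.

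**Figure D4:**
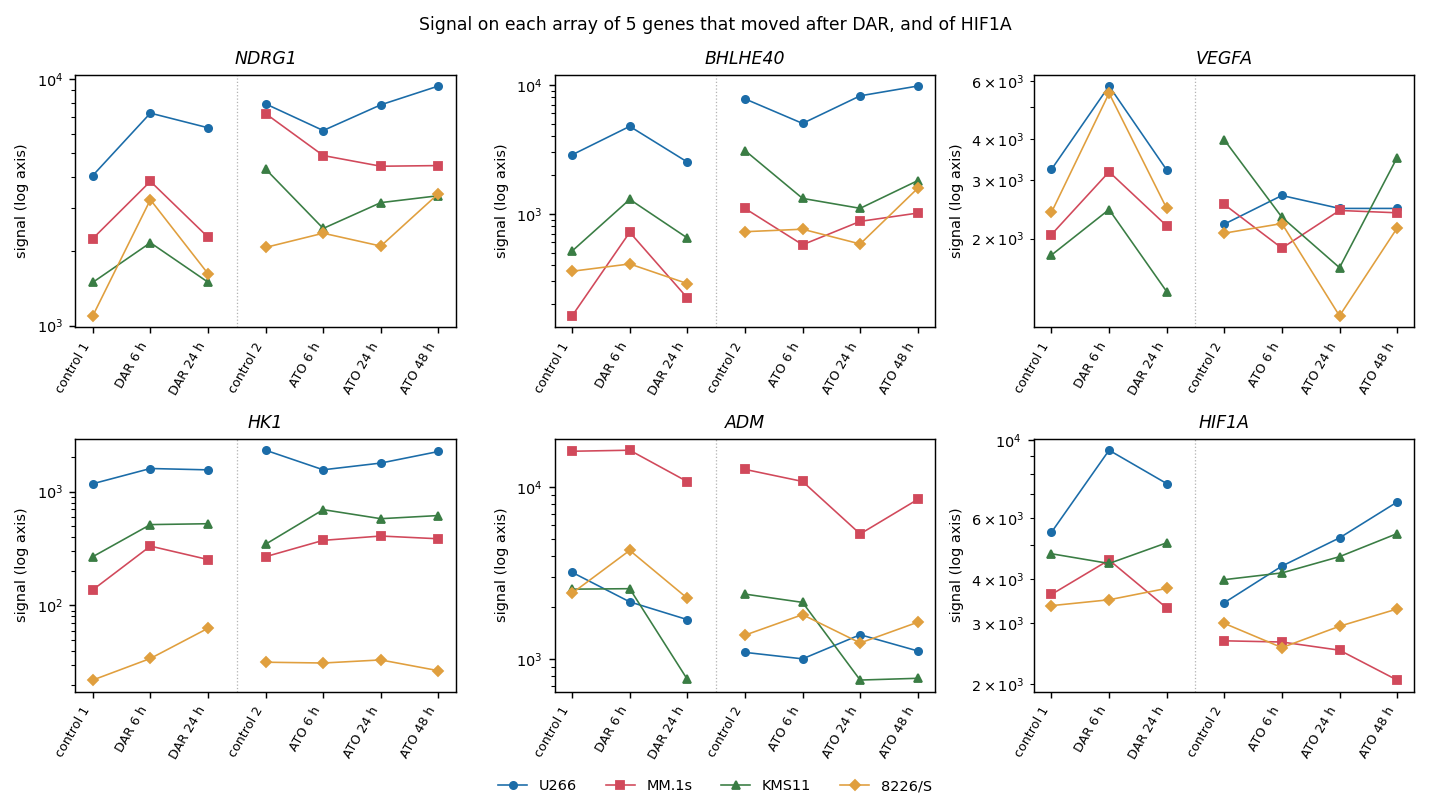
Signal (log axis) on each of the 28 arrays of NDRG1, BHLHE40, VEGFA, HK1, ADM and HIF1A, with the control 1 and DAR arrays left of the dotted line and the control 2 and ATO arrays right of it; lines join arrays of 1 cell line. Left of the dotted line NDRG1, BHLHE40 and VEGFA are highest at 6 h of DAR in every line and lower again at 24 h. Right of it NDRG1 (up to 9360) and BHLHE40 (up to 9777) reach higher signals than after DAR. Their untreated control 2 arrays already reach 7924 and 7777, and neither gene was called after ATO.

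At 24 h of DAR limma called 0 members, beside 0.492% of all genes tested higher and 0.129% lower. At an unadjusted p of 0.05, 1 member was higher and 3 were lower. PDK1 was the nearest, with -1.01 ± 0.27 (adjusted p = 0.0754). Its signal went from 2775 in U266, 11335 in MM.1s, 2943 in KMS11 and 2564 in the fourth line in control 1 to 1653, 5473, 908 and 1670. All 4 lines were lower (-0.61 to -1.67). With both controls of a line pooled, PDK1 (-1.14) and GPI (-0.55) were called lower. HK1 was at 0.72 ± 0.20 (adjusted p = 0.0951), higher in all 4 lines. ADM, which encodes the peptide adrenomedullin, was at -0.82 ± 0.28 (adjusted p = 0.161), lower in all 4 lines.

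From 6 to 24 h of DAR, 4 members fell and none rose, where 3.66% of all genes tested were lower and 4.08% higher. In the higher direction 0 members passed an unadjusted p of 0.05 by limma. VEGFA fell by 0.83 ± 0.18 (adjusted p = 0.00549), back to 3227, 2185, 1381 and 2468, overlapping its control 1 range of 1782 to 3239. BHLHE40 fell by 0.98 ± 0.25 (adjusted p = 0.0144), to 2520, 223, 650 and 288. NDRG1 fell by 0.61 ± 0.17 (adjusted p = 0.0302), to 6342, 2285, 1501 and 1625. ADM fell by 0.89 ± 0.28 (adjusted p = 0.0497), with signals of 2152, 16451, 2568 and 4294 at 6 h and 1696, 10797, 761 and 2259 at 24 h. All 4 genes were lower in all 4 lines. The ADM call was lost under each other scaling, offset, filter and probe set choice (adjusted p = 0.0559 to 0.0787) and without MM.1s, KMS11 or the fourth line (-0.62 without KMS11). This comparison uses no untreated array. In the test of whether the lines differ in their DAR response limma called 0 members and 0.0324% of all genes, and 2 members passed an unadjusted p of 0.05.

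Both compounds were given at 2 µM in the fourth line alone, with 1 array for each time and so no test, and each against its own control. At 6 h HK2 was at -1.07 with ATO and -0.98 with DAR, and at 24 h at -0.47 with either. NDRG1 was at 0.19 with ATO and 1.54 with DAR at 6 h, VEGFA at 0.10 and 1.19, and ANKRD37 at 0.09 and 1.33. The controls of this line differed as well. Control 2 minus control 1 was 0.87 for HK2, 0.90 for NDRG1, -0.21 for VEGFA and 0.32 for ANKRD37. The part of this in the differences between compounds was not tested. In the other lines the doses differ.

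The untreated levels of many members were a property of the line. Over the 8 control arrays, 23 of the 33 genes differed between lines, where 52% of all genes tested did. PFKP differed most firmly (adjusted p = 6.98e-08): it was at 8.64 and 91.7 in MM.1s and at 2447 to 11986 in the other lines. BNIP3 (adjusted p = 7.6e-07) showed the same gap, with 3.83 and 22.6 in MM.1s against 975 to 4938. HK1 was at 22.1 and 31.7 in the fourth line, at 137 to 345 in MM.1s and KMS11, and at 1172 and 2309 in U266 (adjusted p = 8.44e-06). MM.1s stood highest in ADM (16226 and 12722, against 1093 to 3197), in PDK1 (11335 and 12126, against 2236 to 4170) and in ANKRD37 (2557 and 3385, against 322 to 1400). SLC2A3 was at 11.8 to 80.2 in U266 and MM.1s and at 185 to 915 in KMS11 and the fourth line (adjusted p = 0.00619). VEGFA (1782 to 3980) and KDM3A (1631 to 4718) were among the 10 genes for which the lines were not called different.

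**Figure D5:**
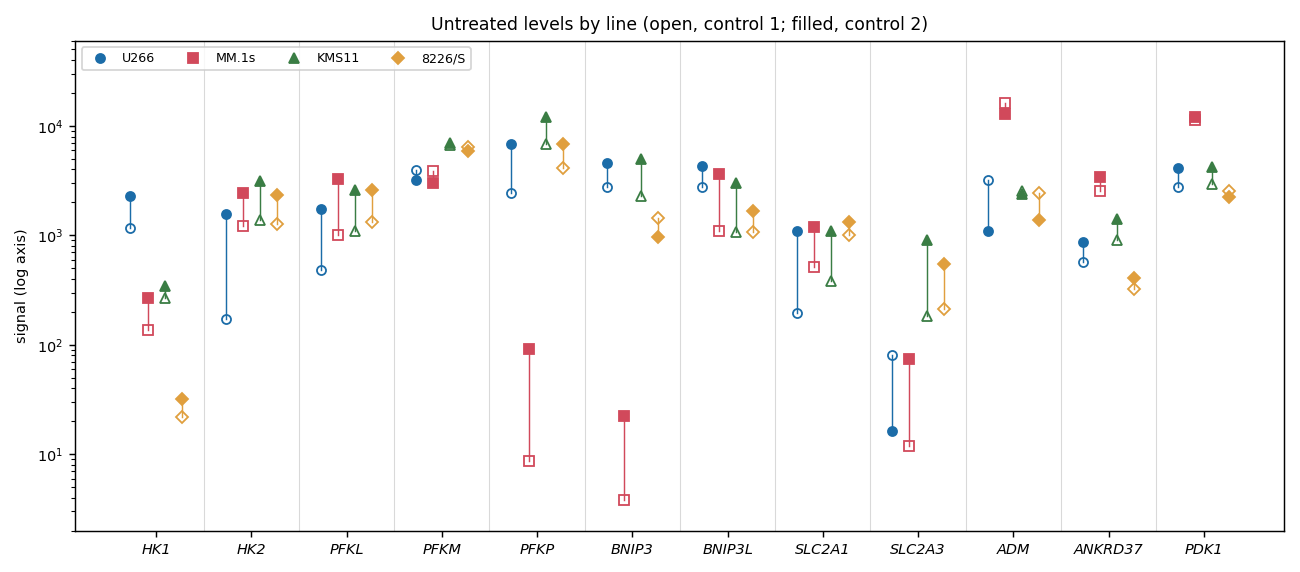
Signal (log axis) of 12 members in the untreated arrays of each line, open symbols for control 1 and filled symbols for control 2, joined by a line. PFKP and BNIP3 lie below 100 in MM.1s alone and HK1 below 100 in the fourth line alone; levels of different genes come from different probe sets and are not comparable.

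Beyond the members, 60 further genes of the pathway were listed, of which 49 were tested. After ATO 4 fell and 1 rose at 6 h, 6 fell at 24 h, and 7 fell and 3 rose at 48 h. Those that fell were 8.16%, 12.2% and 14.3% of the 49, beside 2.67%, 2.29% and 5.49% of all genes tested, and those that rose 2.04%, 0% and 6.12%, beside 3.75%, 2.74% and 6.4%. At 24 h limma called 0 of them higher, and 7 passed an unadjusted p of 0.05. PPFIA4, a scaffold protein gene regulated by hypoxia, changed by -1.55 ± 0.46, -1.70 ± 0.46 and -1.75 ± 0.46 at the 3 times. CITED2, which competes with HIF1A for its coactivator, fell by 1.00 ± 0.17 at 6 h (adjusted p = 0.000691) and by 0.74 ± 0.17 at 24 h. KDM4B, a histone demethylase, fell at 6 h (-0.91 ± 0.19), as did PGM1, which links glycogen to glycolysis (-0.50 ± 0.14). DLD, a subunit of the pyruvate dehydrogenase complex, rose at 6 h (0.44 ± 0.10). INSIG2 (-0.72), HILPDA (-0.71) and ERO1A (-0.71) fell at 24 h; the first retains sterol sensors in the endoplasmic reticulum, the second marks lipid droplets and the third oxidises proteins during folding. At 48 h HILPDA was at -1.07 ± 0.19 and LDHC, the testis lactate dehydrogenase, at -0.85 ± 0.28. DDIT4 (1.24 ± 0.35), an inhibitor of mTORC1, and STC2 (1.01 ± 0.24), a secreted glycoprotein, rose at 48 h; both are known to respond to other stresses besides hypoxia.

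At 6 h of DAR 5 of these 49 genes rose and 3 fell, 10.2% and 6.12%, near the 6.86% and 6.37% of all genes tested. GYS1, which builds glycogen, rose by 0.99 ± 0.19 (adjusted p = 0.00112) and EPAS1, the gene of HIF2A, by 0.84 ± 0.23 (adjusted p = 0.0158). ZNF395 (0.69), WSB1 (0.68) and ERO1A (0.55) rose too. CITED2 (-0.54), ADPGK, a glucokinase that uses ADP (-0.46), and PDHB, a subunit of pyruvate dehydrogenase (-0.43), fell. At 24 h of DAR limma called 0 of the 49, and 4 higher and 3 lower passed an unadjusted p of 0.05. Between the controls 17 were higher and 10 lower in control 2, 34.7% and 20.4%, beside 28.1% and 16.9% of all genes tested, led by SLC16A7, a monocarboxylate carrier (-2.21 ± 0.24), AK4, a mitochondrial adenylate kinase (2.19 ± 0.33), and PPFIA4 (2.05 ± 0.44).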

How the data were processed

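Gene expression was measured on 28 Affymetrix arrays, 7 for each of 4 lines. The deposited values are signal intensity per probe set, made by the authors with GCOS per the submitters' processing notes; version, settings and scaling are not given in the sources used here, and no detection calls were used, so a signal near the array's lower values may be background. Here the deposited intensities were turned into log2(signal + 29). Each gene was read from its brightest probe set with 1 symbol (41097 probe sets; 1801 carried several symbols and 11777 none, and 41043 were carried over to current symbols through RefSeq). A gene was tested where at least 4 arrays gave it a signal over their own 50th percentile.

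limma 3.58.1 (R 4.3.3) was fitted with a baseline for each line and control number and 5 treatment terms, with eBayes trend and Benjamini-Hochberg adjustment over 15448 genes. The controls were compared with line as a term. Line differences used terms of line by compound, times standing in as replicates. The pairing of arrays comes from the line in the labels. On simulated data with 200 changed genes, 44.8% of changes of 1 log2 unit and 92.4% of 2 units were recovered at 6 h of ATO. The number of arrays limits the precision.

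The members and lists were chosen with earlier results of these data known. Values by array are given for called members (the 5 largest in a direction where more were called), HIF1A and the 3 largest changes of each comparison, and further members by counts. Alternatives were another offset, 2 scalings, no filter, the mean of probe sets, pooled controls, no line block and each line left out.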

Additional observations from a re-analysis of the deposited data

Results flagged for a closer look

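BNIP3L at 6 h of ATO was 0.00 in the fourth line, while U266, MM.1s and KMS11 were at -0.82, -0.89 and -0.85. The fourth line's value lay far from the other 3 for their spread, by a gap of 0.921 of the whole range. The test was made on 31 sets of 4 lines and flags about 1 in 20 sets by chance.

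ANKRD37 differed between lines in its response to ATO (limma F test, adjusted p = 0.045), with the 3 times of a line standing in as replicates. The call was lost with an offset of 1, with no filter, with the mean of probe sets and with any 1 of the lines left out. It was lower in MM.1s and KMS11 and slightly higher in the fourth line.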

How the results depend on the processing

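All alternatives were chosen beforehand with earlier results of these data known. Without line as a block (no replicate block, group means over the lines), limma called 0 members at ATO 6, 24 and 48 h and at DAR 6 h. Hardly any gene was called there. Of all genes tested 0.175%, 0.0777% and 0.104% were higher and 0.0194%, 0.0194% and 0.0129% lower at the 3 ATO times. At DAR 6 h it was 0.24% and 0.0647%, so 0 of 33 members is near the share of all genes. With pooled controls it called 2, 3, 4, 3 and 2 members at ATO 6, 24 and 48 h and DAR 6 and 24 h. The shares of all genes are given above for the first 4, and at DAR 24 h 1.66% were lower, as were the 2 members. With the mean of probe sets it called 3 lower at ATO 6 h (1.9% of all genes tested), 2 lower between DAR 6 and 24 h (2.53%) and 0 for line differences after ATO. The last count was 0 with an offset of 1 and with no filter too. Quantile normalization gave 3 higher at DAR 6 h (5.48% of all genes tested) and 4 higher between ATO 6 and 48 h (2.57%). Median centring gave 1 higher between ATO 6 and 48 h (0.744%) and 2 lower between DAR 6 and 24 h (2.76%). With each line left out in turn, the counts ranged from 2 to 10 at ATO 6 h, 1 to 11 at 24 h and 1 to 11 at 48 h, with the shares of all genes given above. They ranged from 2 to 5 at DAR 6 h (3.85% to 6.26% of all genes higher and 3.21% to 5.66% lower) and 13 to 21 between the controls (20.2% to 25.9% and 13.3% to 15.8%). Between ATO 6 and 48 h it was 0 to 2, all higher (0.22% to 2.18%), and between DAR 6 and 24 h 1 to 3, all lower (1.88% to 3.06%). For line differences after ATO the count stayed 0. Between the controls, the sign turned with median centring for ANKRD37 (-0.05), GPI (-0.04) and TPI1 (-0.18) and with quantile normalization for LDHA (0.09); the cause was not tested. No called change after ATO or DAR turned its sign under any alternative run.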
